A study of Mactra quadrangularis with 9 samples.

Results

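The tripartite motif (TRIM) proteins are a large animal family, many of them ubiquitin ligases. Of the 24722 genes in the deposited table of the clam *Mactra quadrangularis*, 310 carry a description that names a TRIM protein. The genes were chosen by that description alone ("tripartite motif-containing", or TRIM followed by a number) together with a mean level of at least 1 FPKM (fragments per kilobase, scaled to mapped fragments) over the 9 libraries, and 179 genes met both conditions, out of 15397 genes in the table at that level. The filter removed 131 genes of the family. Just inside it were Mve17G003380 and Mve10G011170, both at a mean of 1.00 FPKM, and just outside were Mve14G005360 at 0.996 FPKM and Mve04G015190 at 0.988 FPKM.

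Gill mRNA was sequenced from clams held for 24 h at a dissolved oxygen of 7.5 mg/L (control, group A), 4 mg/L (group B) or 2 mg/L (group C), with 3 libraries per group. Temperature was 20 ± 1 °C and salinity 27 in all groups, each parallel held 40 unfed clams, and oxygen was lowered by bubbling nitrogen under a plastic cover. The comparisons address how the gill transcriptome responds to a moderate and a severe lack of oxygen. Whether libraries within a group stem from different clams is not stated in the labels. The p-values therefore rest on library-to-library spread, possibly technical, and a difference between clams cannot be told apart from one between oxygen levels. In whole gill, fewer cells of a type and less RNA per cell cannot be told apart.

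A typical TRIM protein begins with a RING finger, which takes ubiquitin from a conjugating enzyme and passes it to a substrate. One or more B-box zinc fingers and a coiled coil follow, and the part after the coiled coil, which binds the substrate or RNA, differs between branches of the family. Human TRIM proteins act in antiviral signalling and autophagy, and those that end in NHL repeats act in development and in neurons of mammals, flies and nematodes. Bivalve genomes are known for large TRIM expansions, with gill as a tissue in constant contact with microbes.

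The number in a clam gene's description is that of its best annotated relative, taken from the scallop *Mizuhopecten yessoensis* in 85 genes, the oyster *Crassostrea gigas* in 43, the oyster *Crassostrea virginica* in 40 and other species in 11. TRIM2 was the name of 74 of the 179 genes. TRIM3 and TRIM45 followed with 18 each, TRIM6 with 12, TRIM8 and TRIM56 with 10 each, TRIM5 and TRIM33 with 8 each, TRIM71 with 7 and TRIM9 with 4. In the human classification by C-terminal part, the 99 genes named TRIM2, TRIM3 or TRIM71 belong to the NHL-repeat class. The class was read from the number and not from the clam proteins. Of the 179 genes, 37 carried a gene ontology entry, 30 of them zinc ion binding and 11 ubiquitin-protein transferase activity. The genes were short, with a median span of 2865 bases against 10455 bases over all genes tested. Most were expressed at a low level: the median was 2.88 FPKM against 5.66 FPKM over all genes tested, 58 genes lay between 1 and 2 FPKM, 104 between 2 and 10 FPKM, and 17 reached 10 FPKM.

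At 4 mg/L more of these genes fell than rose. Against the control, 92 of the 179 fell and 44 rose (edgeR's quasi-likelihood test on counts, Benjamini-Hochberg adjusted p under 0.05 over the 15397 genes tested), while 43 were not called. Over all genes tested, 69.9% were called, 34.5% fell and 35.4% rose, and of the TRIM genes 51.4% fell and 24.6% rose. The median log2 fold change was -0.53 for the TRIM genes and -0.00 for all genes. A change of at least 2-fold was called for 65 that fell, where 14.8% of all genes did, and for 33 that rose, where 17.9% did. At 2 mg/L against the control 77 fell and 38 rose, where 63.5% of all genes were called, 32.0% falling and 31.5% rising. These are 43.0% and 21.2% of the TRIM genes, with median log2 fold changes of -0.45 and -0.03.

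Between the hypoxic levels the balance lay the other way. At 2 mg/L against 4 mg/L, 68 of the 179 genes rose and 49 fell (38.0% and 27.4%), while 63.7% of all genes were called, 31.6% rising and 32.1% falling. The median log2 fold change was 0.12 for the TRIM genes and -0.02 for all genes. That median turned to -0.01 when libraries were scaled by their total counts, which also moved the median of all genes to -0.15. With limma on log2 FPKM plus 0.1 or plus 1 it was -0.0105 and -0.0089, with -0.16 and -0.13 for all genes. The excess of rises lay on chromosome 17, where 27 of 44 TRIM genes rose and 5 fell. Among the 135 elsewhere 41 rose and 44 fell (30.4% and 32.6%), with a median of -0.05.

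The 3 control libraries lay above the 6 hypoxic ones for 68 of the 179 genes (38.0%), compared with 21.7% of all genes tested. The 3 libraries at 4 mg/L lay below the other 6 for 59 genes (33.0%), compared with 21.2% of all genes. In the remaining arrangements the TRIM share was under that of all genes. The libraries at 4 mg/L were all above for 33 genes (18.4% against 23.0%), those at 2 mg/L all above for 23 (12.8% against 17.4%) and all below for 25 (14.0% against 15.8%), and the control libraries all below for 24 (13.4% against 20.8%). Some difference over the 3 groups was called for 158 genes, 88.3% of them, where the same edgeR F test called 84.3% of all genes.

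**Figure D1:**
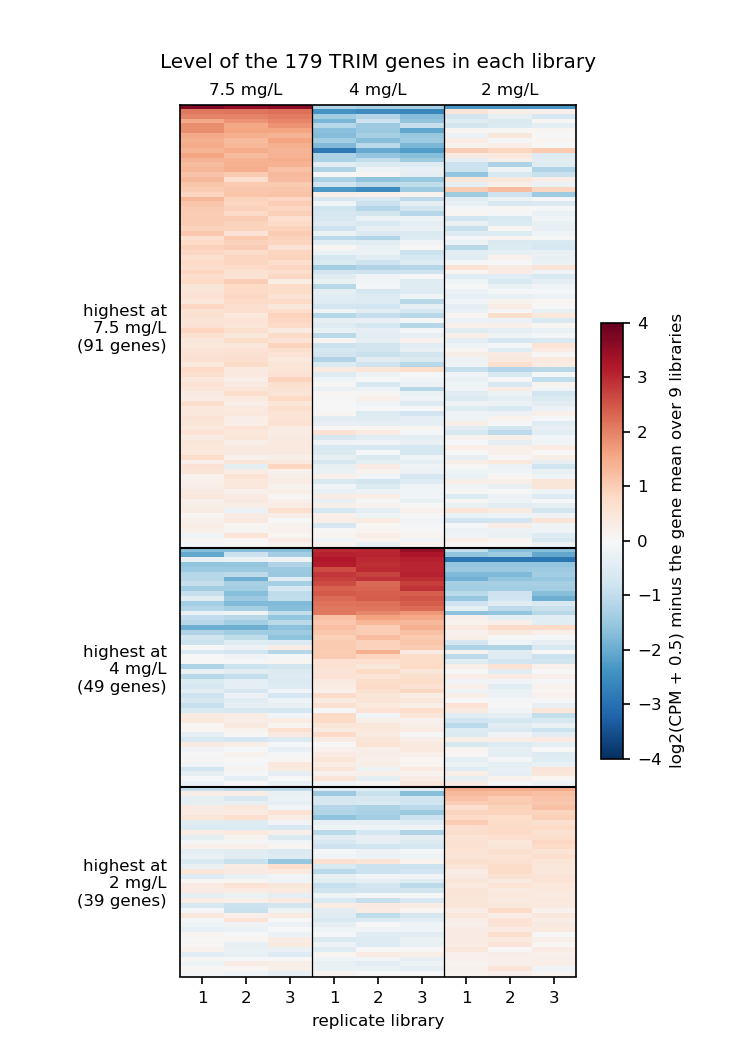
Each row is 1 of the 179 TRIM genes and each column 1 library; colour gives log2(CPM + 0.5) minus the gene's mean over the 9 libraries, from -4 (blue) to 4 (red). Rows are grouped by the oxygen level with the highest mean, which was the control for 91 genes, 4 mg/L for 49 and 2 mg/L for 39.

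A gene that is near 0 in 2 groups passes the filter only through the group where it is high, so these counts hold genes that had to differ. Restricting them to the 114 TRIM genes that averaged 1 FPKM or more in every group, a restriction chosen after the counts were seen, left 57 that fell and 23 that rose at 4 mg/L, 44 and 25 at 2 mg/L against the control, and 48 that rose and 26 that fell at 2 against 4 mg/L. Among the 12438 tested genes restricted likewise, 35.1% fell and 32.8% rose at 4 mg/L, against 50.0% and 20.2% of the TRIM genes. In that background 32.1% fell and 31.1% rose at 2 mg/L against the control, and 31.4% rose and 30.4% fell at 2 against 4 mg/L. The genes at 1 FPKM or more in 1 group only numbered 38, of which 23 were in the control group, 14 at 4 mg/L and 1 at 2 mg/L, Mve17G006680. They were 21.2% of the TRIM genes, where 7.04% of all genes tested were at that level in 1 group only, 277 in the control, 586 at 4 mg/L and 221 at 2 mg/L. The TRIM genes had the lower median level, 2.88 against 5.66 FPKM, and these shares were not matched for level.

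The NHL-repeat class holds the most abundant TRIM gene of the gill by far. In mammals TRIM2 ubiquitinates neurofilament light chain in neurons, TRIM3 is a brain protein of motor transport, and TRIM71, called LIN-41 in nematodes, sets the timing of development. Of the 99 genes of this class, 51 fell and 26 rose at 4 mg/L, 44 fell and 21 rose at 2 mg/L, and 39 rose and 29 fell at 2 against 4 mg/L. These are 51.5% and 26.3%, 44.4% and 21.2%, and 39.4% and 29.3% of the class, within 2 percentage points of the whole family in each case. Over all genes tested 34.5% fell and 35.4% rose at 4 mg/L and 32.0% fell and 31.5% rose at 2 mg/L, and the counts of the classes that follow stand against the same shares.

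Mve11G008840, described as TRIM2 and located on chromosome 11 from 24191885 to 24194991 on the minus strand, had a mean of 875 FPKM over the 9 libraries. Its level, in counts scaled to library size by the TMM method (CPM, used for levels of 1 gene from here on), was 1169, 1115 and 1108 in the controls, 1604, 1642 and 1688 under 4 mg/L and 6363, 6335 and 6494 under 2 mg/L. The 3 groups did not overlap, and the level rose with each step down in oxygen. It was 1.45-fold higher at 4 mg/L (edgeR adjusted p = 3.80e-11) and 5.66-fold higher at 2 mg/L (edgeR adjusted p = 3.19e-19) than in the control, and 3.89-fold higher at 2 than at 4 mg/L. This gene alone made up 27.1% of the summed FPKM of the 179 genes in the control, 39.2% at 4 mg/L and 69.1% at 2 mg/L. The summed CPM of the family was 2976 ± 44.0 (SD, n = 3) in the control, 3232 ± 50.7 at 4 mg/L and 8274 ± 97.9 at 2 mg/L. Without it the sums were 1845 ± 13.7, 1588 ± 11.6 and 1876 ± 15.0 CPM, so that the group with 4 mg/L was then the lowest.

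A second TRIM2 gene lies close by on chromosome 11, Mve11G008890, from 24231464 to 24232668. It measured 34.2, 35.8 and 35.6 CPM in the controls, 28.2, 30.3 and 26.0 under 4 mg/L and 88.8, 92.9 and 94.9 under 2 mg/L. Its groups did not overlap either, but 4 mg/L was the lowest of the 3. It fell 1.25-fold at 4 mg/L (edgeR adjusted p = 6.16e-04) and rose 2.62-fold at 2 mg/L (edgeR adjusted p = 1.95e-11).

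The other abundant NHL-class genes moved in different ways. Mve10G000880 rose at both levels, from 17.8 ± 1.27 CPM to 37.2 ± 0.634 at 4 mg/L and 40.6 ± 1.27 at 2 mg/L. Mve14G013150 fell 2.06-fold at 4 mg/L, from 74.6 ± 1.35 to 36.1 ± 0.888 CPM, and stood at 68.7 ± 3.40 CPM at 2 mg/L (edgeR adjusted p = 0.0913 against the control). Mve04G014640 rose at 4 mg/L, from 11.1 ± 0.716 to 17.9 ± 0.871 CPM, and fell at 2 mg/L to 6.82 ± 0.802. Mve17G004580 went from 90.0 ± 3.36 CPM through 82.6 ± 3.55 to 70.4 ± 1.74, and was called lower at 2 mg/L. Mve09G010880 was highest at 2 mg/L, at 33.9 ± 1.72 CPM against 11.7 ± 1.66 in the control and 9.32 ± 0.472 at 4 mg/L.

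**Figure D2:**
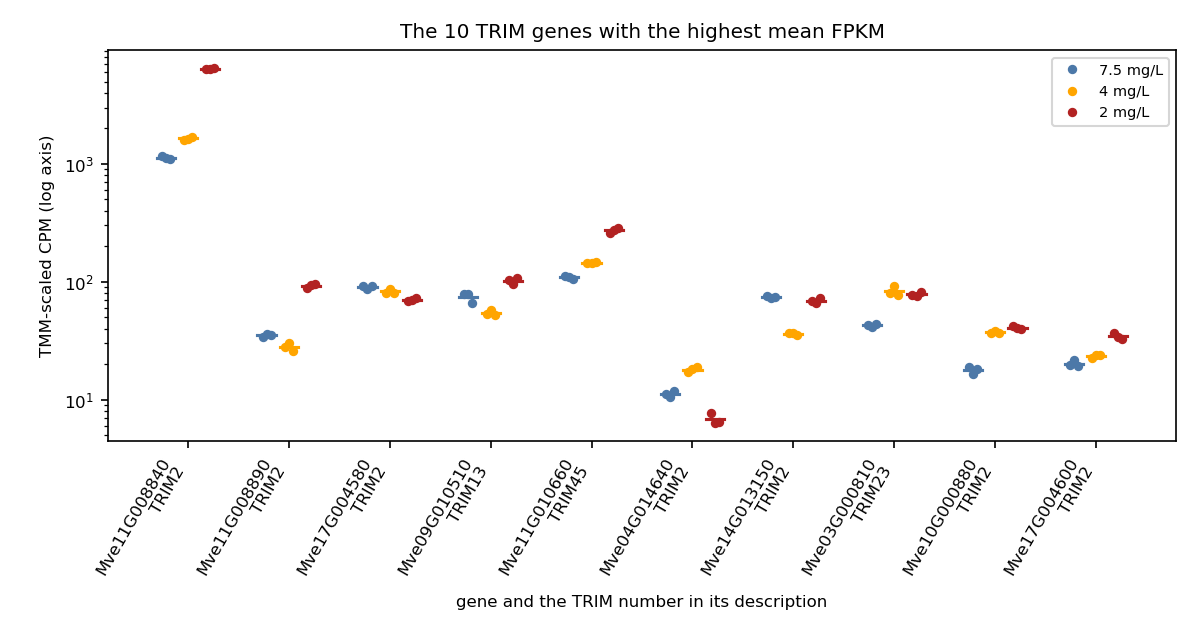
TMM-scaled CPM on a log axis of the 10 TRIM genes with the highest mean FPKM; dots are the 3 libraries of each oxygen level and bars their means. The 3 libraries of Mve11G008840 at 2 mg/L lie between 6335 and 6494 CPM, above every other gene shown.

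Several NHL-class genes were nearly silent in the control and at 2 mg/L and present at 4 mg/L. Mve19G005170 (TRIM2, chromosome 19, 20159164 to 20165512) had no count in the controls, 12.5, 12.8 and 17.7 CPM at 4 mg/L, and 0.341, 0 and 0 CPM at 2 mg/L. It was at least 461-fold higher at 4 mg/L than in the control, where the group without counts is set to a floor of 3 counts in all. Mve11G007350 (TRIM2) had 0, 0 and 0.147 CPM in the control, 12.8, 11.2 and 11.8 at 4 mg/L and no count at 2 mg/L, so it was at least 331-fold lower at 2 than at 4 mg/L. For both genes every library at 4 mg/L lay far above the other 6. Both passed the filter through that group, so that they had to differ.

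Mve11G007350 starts at 20278673 on the plus strand of chromosome 11. Its neighbour Mve11G007340 (TRIM71, named here for its place) ends at 20275495 on the minus strand and showed the same order of groups, with 0.215 ± 0.188 CPM in the control, 8.09 ± 0.176 at 4 mg/L and 0.229 ± 0.211 at 2 mg/L. Further TRIM2 genes were high at 4 mg/L alone. They were Mve09G005930, with 0.403 ± 0.411, 13.3 ± 1.03 and 0.0994 ± 0.0867 CPM, Mve09G001850, with 0.240 ± 0.109, 12.1 ± 1.68 and 0.0533 ± 0.0923 CPM, Mve12G009290, with 0.0585 ± 0.101 and 6.95 ± 1.24 CPM and no count at 2 mg/L, and Mve06G013530, with 0.0979 ± 0.169 and 7.13 ± 1.77 CPM and no count at 2 mg/L. Mve14G009890 (TRIM2) was also near 0 in the control, at 0.0391 ± 0.0678 CPM, but was present at both hypoxic levels, at 3.99 ± 0.652 and 2.51 ± 0.432 CPM.

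**Figure D3:**
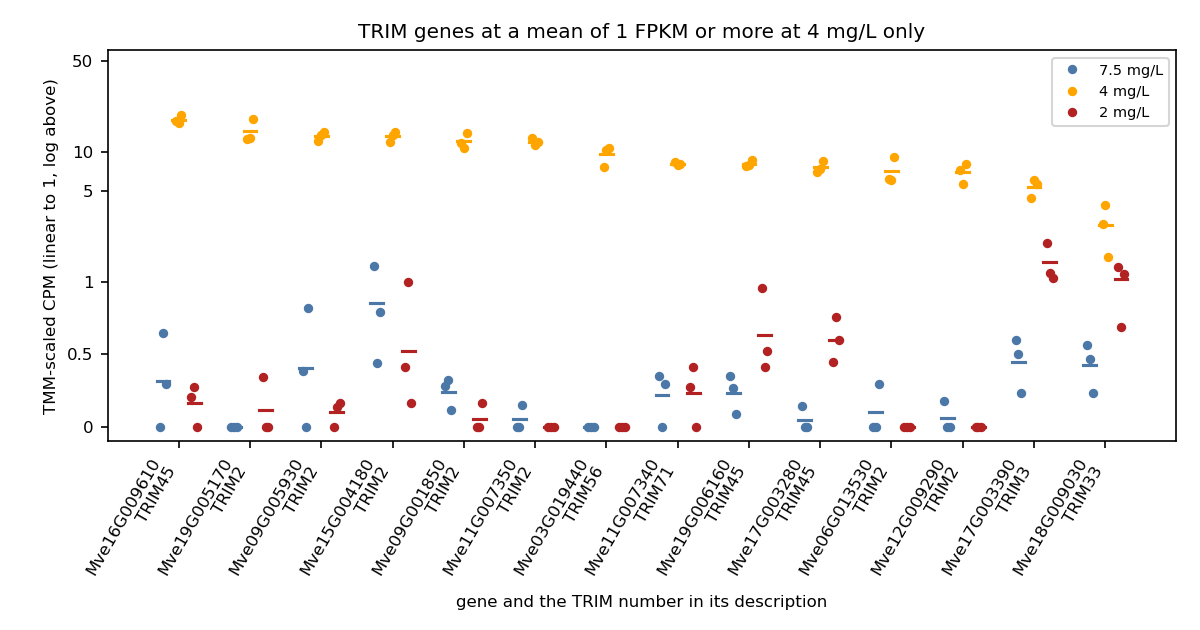
TMM-scaled CPM of the 14 TRIM genes whose mean reached 1 FPKM at 4 mg/L only, on an axis that is linear to 1 and logarithmic above; dots are libraries and bars group means. The genes were picked for this pattern, which is a description: for instance Mve16G009610 stood at 17.7 ± 1.38 CPM at 4 mg/L and at 0.313 ± 0.324 and 0.160 ± 0.143 in the control and at 2 mg/L.

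Other NHL-class genes were lost under hypoxia. Mve11G002980 (TRIM2, chromosome 11, 8450515 to 8452473) measured 32.1, 28.1 and 29.6 CPM in the controls, 0.587, 0.496 and 0.499 at 4 mg/L, and had no count at 2 mg/L. It was 56.3-fold lower at 4 mg/L and at least 827-fold lower at 2 mg/L. The gene was near 0 in both hypoxic groups and passed the filter through the control, so that it had to differ. Among the 179 genes its fitted log2 fold change was the lowest in both comparisons with the control. Mve19G007590 (TRIM2) fell at both levels, from 12.7 ± 0.455 CPM to 0.713 ± 0.232 and 1.71 ± 0.376.

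A fall at 4 mg/L was not always kept at 2 mg/L. Mve11G008050 (TRIM2) measured 14.9, 15.7 and 15.9 CPM in the controls, 1.05, 0.806 and 2.37 under 4 mg/L and 14.9, 17.6 and 13.4 under 2 mg/L. It was 11.0-fold lower at 4 mg/L than in the control (edgeR adjusted p = 3.81e-09), while the libraries at 2 mg/L spread across those of the control. Mve01G015930 (TRIM71) went from 4.60 ± 0.265 CPM to 0.155 ± 0.0930 and 1.51 ± 0.507, and Mve17G003380 (TRIM2) from 5.85 ± 1.43 to 0.579 ± 0.145 and 3.42 ± 0.301. Mve17G009870 (TRIM2) fell at 4 mg/L, from 5.85 ± 1.31 to 1.87 ± 0.706 CPM, and rose at 2 mg/L to 13.7 ± 0.436. Mve15G010210 (TRIM71) did the opposite, with 3.71 ± 1.13 CPM in the control, 21.2 ± 2.72 at 4 mg/L and 1.62 ± 0.432 at 2 mg/L.

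Some NHL-class genes of low level rose at both hypoxic levels. Mve14G009520 (TRIM2) rose from 1.63 ± 0.642 CPM to 5.18 ± 0.996 and 5.67 ± 0.385. Mve17G003390 (TRIM3) rose from 0.444 ± 0.187 CPM to 5.39 ± 0.872 and 1.41 ± 0.494, and Mve17G003460 (TRIM3) from 0.699 ± 0.320 to 4.95 ± 0.573 and 2.21 ± 0.304. In both TRIM3 genes the level at 2 mg/L was again below that at 4 mg/L by the same test.

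The genes named TRIM8 and TRIM56 belong to the class with no known domain after the coiled coil. In human cells TRIM8 acts in inflammatory signalling and TRIM56 ubiquitinates the DNA-sensing adaptor STING. Of the 20 genes of this class, 12 fell and 2 rose at 4 mg/L, and 14 fell and 2 rose at 2 mg/L. Of the 10 named TRIM8, 8 fell and 0 rose at 4 mg/L and 8 fell and 1 rose at 2 mg/L. Mve11G002540 (TRIM8) measured 19.5, 21.7 and 21.3 CPM in the controls, 5.53, 5.05 and 5.24 under 4 mg/L and 4.03, 3.01 and 5.40 under 2 mg/L. The control libraries stood well apart from the 6 hypoxic ones, which overlapped one another, and the falls were 3.95-fold and 5.05-fold (edgeR adjusted p = 2.51e-08 and 6.61e-09).

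Some TRIM56 genes differed widely between the groups. Mve15G011650 (chromosome 15, 40552989 to 40563607) measured 2.53, 2.65 and 2.85 CPM in the controls, 33.1, 28.9 and 31.1 at 4 mg/L, and had no count at 2 mg/L. It rose 11.6-fold at 4 mg/L (edgeR adjusted p = 2.03e-11) and at 2 mg/L was at least 74.4-fold lower than in the control and at least 860-fold lower than at 4 mg/L. Mve03G019440 (chromosome 3, 63950190 to 63953336) had no count in the control or at 2 mg/L and 7.69, 10.3 and 10.6 CPM at 4 mg/L, which is at least 307-fold and at least 265-fold above them. It passed the filter through the group at 4 mg/L alone, so that it had to differ. Mve17G007730 (chromosome 17, 27259144 to 27275067) ran the other way. It measured 25.8, 26.2 and 27.2 CPM in the control, 0.680, 0.589 and 0.499 under 4 mg/L and 8.22, 6.63 and 6.48 under 2 mg/L, a 44.5-fold and a 3.71-fold fall (edgeR adjusted p = 8.30e-14 and 3.57e-09).

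TRIM5, TRIM6, TRIM25 and TRIM62 end in a PRY-SPRY domain, the part by which primate TRIM5 recognises retroviral capsids and by which human TRIM25 binds partners in RIG-I signalling. Of the 22 clam genes so named, 13 fell and 4 rose at 4 mg/L, and 7 fell and 3 rose at 2 mg/L. Mve05G000830 (TRIM6) measured 8.98, 9.85 and 8.95 CPM in the controls, 0, 0.403 and 0.281 under 4 mg/L and 6.82, 6.05 and 7.08 under 2 mg/L. It fell 40.0-fold at 4 mg/L (edgeR adjusted p = 4.95e-09), and at 2 mg/L its libraries lay below the control ones without a call (edgeR adjusted p = 0.153). Mve17G003630 (TRIM6) fell at both levels, from 12.5 ± 1.40 CPM to 1.22 ± 0.316 and 2.14 ± 0.298. Mve11G002930 (TRIM5) was lower at 2 mg/L, at 0.0806 ± 0.140 CPM against 2.24 ± 0.269 in the control, and stood at 1.01 ± 0.0421 at 4 mg/L (edgeR adjusted p = 0.0562).

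TRIM45, whose human form carries a filamin-type repeat and dampens MAP kinase signalling, was named in 18 genes. At 4 mg/L 7 fell and 5 rose, and at 2 mg/L 4 fell and 5 rose. The shares that fell and rose were 38.9% and 27.8% at the moderate level, then 22.2% and 27.8% at the severe one, and lay near or under those of all genes tested. The most abundant, Mve11G010660, measured 112, 110 and 105 CPM in the controls, 143, 145 and 148 under 4 mg/L and 258, 275 and 286 under 2 mg/L. Like the most abundant TRIM2 gene it rose at each step, 1.33-fold and then to 2.50-fold above the control (edgeR adjusted p = 6.48e-07 and 2.74e-13). Mve17G003280, at 0.0468 ± 0.0810, 7.64 ± 0.804 and 0.601 ± 0.158 CPM, and Mve16G009610 were near 0 in the control and high at 4 mg/L. Mve11G000890 fell at both levels, from 2.36 ± 0.266 CPM to 0.311 ± 0.271 and 0.218 ± 0.269, though DESeq2 did not call it at 4 mg/L (adjusted p = 0.0596).

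TRIM33 proteins end in a PHD finger and a bromodomain, and human TRIM33 is a nuclear regulator of SMAD4 in TGF-beta signalling. Of the 8 clam genes, 4 fell and 2 rose at 4 mg/L, and 4 fell and 3 rose at 2 mg/L. Mve16G010780 measured 8.73, 7.61 and 7.57 CPM in the controls, 44.3, 42.5 and 48.0 under 4 mg/L and 23.9, 27.4 and 24.3 under 2 mg/L. The groups did not overlap, and the gene was 5.64-fold and 3.17-fold above the control (edgeR adjusted p = 1.05e-12 and 3.46e-10). Mve07G000290 dropped from 11.2 ± 1.22 to 3.00 ± 0.347 CPM at 4 mg/L and rose to 15.6 ± 0.110 at 2 mg/L (a rise over the control that total-count scaling and limma on log2(FPKM + 0.1) did not call, adjusted p = 0.0887 and 0.0678), and Mve10G011310 fell in steps from 4.75 ± 0.425 to 1.65 ± 0.328 and 0.678 ± 0.371.

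**Figure D4:**
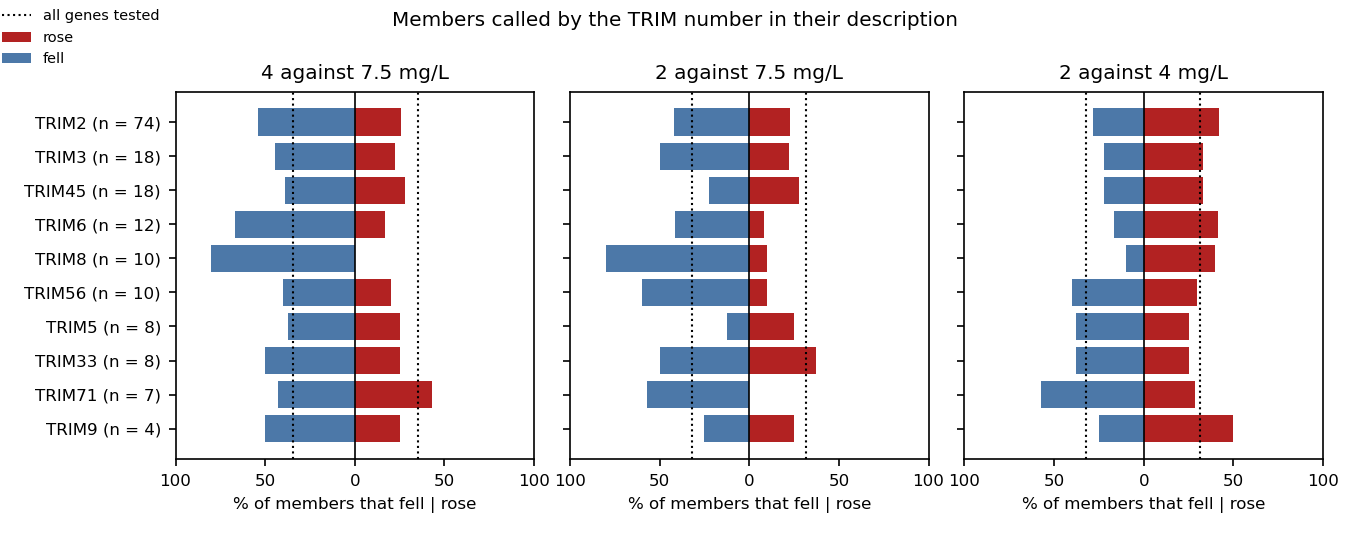
Share of the genes with each TRIM number that fell (blue, left) or rose (red, right) in each comparison by the edgeR call; dotted lines mark the shares over all genes tested. TRIM8 shows 80.0% of its 10 genes falling in both comparisons with the control.

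Numbers that occur once or a few times include the family's most specialised members. Mve03G000810, the TRIM23 gene, whose human form carries an ARF-type GTPase domain and takes part in autophagy, measured 42.6, 41.0 and 44.0 CPM in the controls, 79.9, 91.4 and 77.6 under 4 mg/L and 77.2, 76.0 and 82.0 under 2 mg/L. Both hypoxic groups lay above the control and overlapped each other, at 1.95-fold and 1.84-fold (edgeR adjusted p = 1.72e-09 and 8.17e-09). Mve09G010510, the TRIM13 gene, whose human form sits in the endoplasmic reticulum membrane, fell at 4 mg/L, from 74.3 ± 7.03 to 53.9 ± 2.91 CPM, and rose at 2 mg/L to 102 ± 6.29. Mve04G002990, one of 4 genes named for the neuronal ligase TRIM9, had the same order at lower levels, with 3.08 ± 0.711, 0.869 ± 0.0965 and 5.33 ± 1.02 CPM. Its call at 2 mg/L against the control was lost without control library 3 or without library 3 at 2 mg/L (edgeR adjusted p = 0.0769 and 0.0798), and under total-count scaling and limma on log2(FPKM + 0.1).

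Among genes called in no comparison, the 5 most abundant were Mve06G007490 (TRIM45), Mve03G018300 (TRIM3), Mve06G015080 (TRIM2), Mve03G019080 (TRIM56) and Mve14G011830 (TRIM2). Mve06G007490 stood at 12.0 ± 1.30, 14.9 ± 3.41 and 14.0 ± 2.30 CPM. Mve03G018300 came nearest to a call, at 7.59 ± 0.791 CPM in the control and 9.60 ± 0.395 at 2 mg/L (edgeR adjusted p = 0.0506). The remaining genes of this set ranged from 1.19 to 5.58 CPM in their group means.

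The family was concentrated on chromosome 17, which held 44 of the 179 genes (24.6%) but 3.64% of all genes in the table. Before the filter 87 of the 310 family genes lay there. Of the 44, 28 fell and 8 rose at 4 mg/L, 22 fell and 13 rose at 2 mg/L against the control, and 27 rose and 5 fell at 2 against 4 mg/L. Among the 390 tested genes of that chromosome outside the family, 44.4% fell and 31.0% rose at 4 mg/L, 35.1% fell and 32.6% rose at 2 mg/L, and 39.2% rose and 27.4% fell at 2 against 4 mg/L. On the other chromosomes 64 of 135 TRIM genes fell and 36 rose at 4 mg/L, while at 2 against 4 mg/L 41 rose and 44 fell.

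Runs of 3 or more TRIM genes whose starts lay less than 100 kb apart numbered 9, held 38 genes and were on chromosome 17 in 4 cases. The run with the most genes, from 33711708 to 33856806 on chromosome 17, had 9 genes named TRIM6, TRIM8 or TRIM45. At 4 mg/L 8 of its genes fell and 0 rose, with log2 fold changes from -1.77 for Mve17G009550 to -0.31 for Mve17G009610, and at 2 mg/L 6 fell and 0 rose. Mve17G009550 went from 4.03 ± 0.438 CPM to 1.18 ± 0.374 and 1.12 ± 0.212. Mve17G009490 at the start of the run fell at 4 mg/L, from 6.44 ± 0.315 to 2.33 ± 0.286 CPM, and stood at 6.97 ± 1.20 at 2 mg/L. This run holds 5 of the 10 TRIM8 genes, all of which fell at both levels, whereas of the 5 TRIM8 genes elsewhere 3 fell at 4 mg/L and 3 at 2 mg/L.

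A run of 5 adjacent genes from 17635257 to 17699141 on the same chromosome behaved differently. At 2 mg/L against the control 4 of them rose and 1, Mve17G004580, fell. Mve17G004590 (TRIM3) rose 2.12-fold, from 14.4 ± 0.901 to 30.6 ± 0.918 CPM, Mve17G004600 (TRIM2) 1.71-fold, from 20.1 ± 1.27 to 34.4 ± 1.92, and Mve17G004610 (TRIM6) 1.78-fold, from 4.69 ± 0.738 to 8.38 ± 0.693. At 4 mg/L 2 of the 5 rose, Mve17G004590 and Mve17G004600. The call of Mve17G004600 at 4 mg/L was lost without control library 1 or 3 or library 2 or 3 at 4 mg/L (edgeR adjusted p = 0.0910 to 0.115), under total-count or upper-quartile scaling, with limma on FPKM, with only the 2 groups fitted and with no filter on low values.

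Another run on chromosome 17 held large falls at 4 mg/L. In the run from 27163866 to 27323859, which contains Mve17G007730, all 4 genes fell at 4 mg/L (median log2 fold change -4.43) and all 4 fell at 2 mg/L (-1.48), and all 4 were higher at 2 than at 4 mg/L. Mve17G007680 (TRIM2) went from 5.45 ± 0.276 CPM to 0.279 ± 0.242 and 1.98 ± 0.226, and Mve17G007740 (TRIM2) from 4.61 ± 0.575 to 0.186 ± 0.111 and 1.62 ± 0.678. The 3 tested genes of that span that are not TRIM genes fell in both comparisons as well, with medians of -3.77 and -1.87. A short way upstream Mve17G007510 (TRIM2) went from 6.25 ± 0.753 CPM to 0.134 ± 0.125 and 1.72 ± 0.0579, and Mve17G007530 (TRIM2) from 3.67 ± 0.153 to 0.186 ± 0.111 and 0.903 ± 0.355.

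The run on chromosome 14 from 29960702 to 30030011 had no common direction. Of its 4 genes, Mve14G009640 (TRIM2) rose at both levels, from 2.89 ± 0.269 CPM to 4.72 ± 0.428 and 4.74 ± 0.202. Mve14G009660 (TRIM2) fell at 2 mg/L, from 4.73 ± 0.279 to 2.04 ± 0.161 CPM, and Mve14G009610 (TRIM3) went from 9.82 ± 0.699 CPM to 7.17 ± 0.401 at 4 mg/L and stood at 10.5 ± 2.48 at 2 mg/L.

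**Figure D5:**
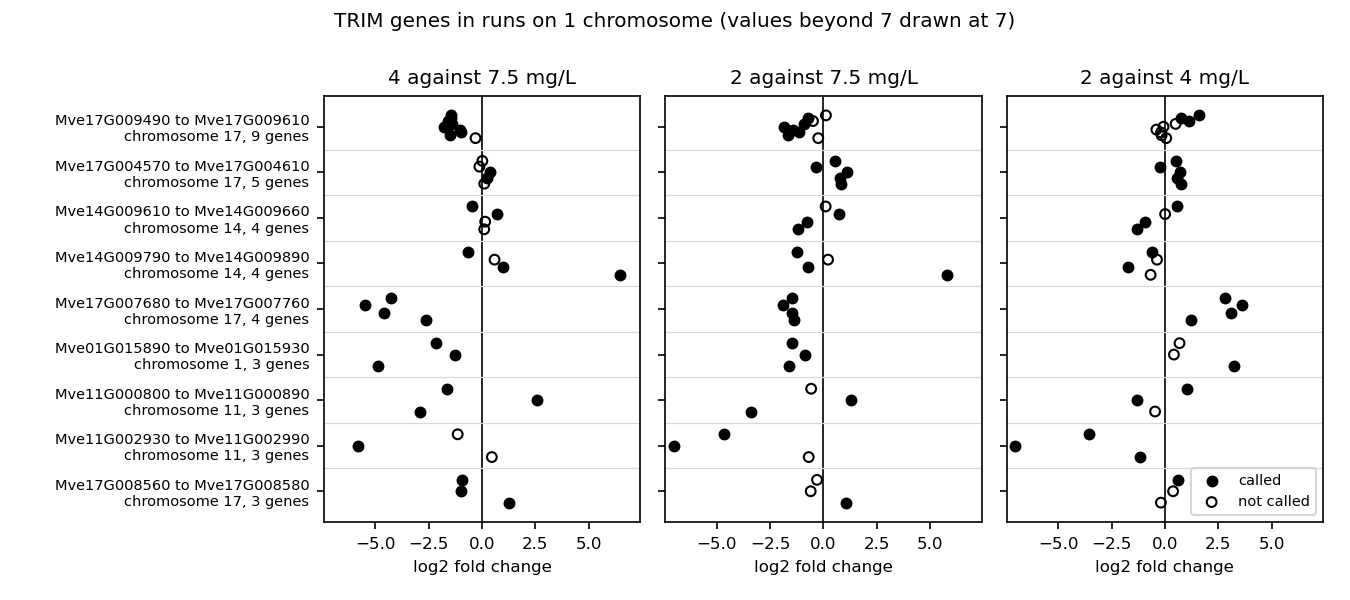
Log2 fold change of each TRIM gene in the 9 runs of neighbouring TRIM genes, 1 panel per comparison; filled dots passed the edgeR call and open dots did not. In the fifth row, the run with Mve17G007730, all 4 dots lie left of 0 in both comparisons with the control and right of 0 at 2 against 4 mg/L.

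Other genes of the ubiquitin pathway were counted in 3 lists. Of 145 other genes described as RING-type ligases, 65 rose and 43 fell at 4 mg/L (44.8% and 29.7%, against 35.4% and 34.5% of all genes tested) and 66 rose and 36 fell at 2 mg/L (45.5% and 24.8%, against 31.5% and 32.0%). That list includes genes named MID2, which human nomenclature also calls TRIM1 and which the name rule did not take. One of them, Mve14G011910, fell 25.7-fold at 4 mg/L. Of 42 deubiquitinases, which remove ubiquitin, 21 rose (50.0%) and 6 fell (14.3%) at 4 mg/L, led by Mve07G008310 (ubiquitin carboxyl-terminal hydrolase 25), up 17.4-fold. At 2 mg/L 16 of the 42 rose (38.1%) and 9 fell (21.4%). Of 25 ubiquitin-activating and ubiquitin-conjugating enzymes, 8 rose (32.0%, under the share of all genes) and 5 fell (20.0%) at 4 mg/L. At 2 mg/L 9 of the 25 rose (36.0%) and 10 fell (40.0%), against 31.5% and 32.0% of all genes.

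The signalling genes that TRIM proteins act on in vertebrates were counted from the same fit. The list held 61 genes named for toll-like receptors, RIG-I-like receptors, TRAF adaptors or interferon regulatory factors and their binding proteins. At 4 mg/L 28 fell and 18 rose (45.9% and 29.5%, against 34.5% and 35.4% of all genes tested). At 2 mg/L 27 rose and 16 fell (44.3% and 26.2%, against 31.5% and 32.0%). At 2 against 4 mg/L 36 rose (59.0%, against 31.6%) and 11 fell, a share under the 32.1% of all genes. The RIG-I-like helicase gene Mve19G001220 fell 5.10-fold at 4 mg/L and rose 2.96-fold at 2 mg/L. Of 18 autophagy genes, 7 rose and 7 fell at 4 mg/L, 38.9% each and near the 35.4% and 34.5% of all genes. At 2 mg/L 12 rose and 3 fell (66.7% and 16.7%, against 31.5% and 32.0%). The sequestosome-1 gene Mve09G009650, an autophagy receptor that human TRIM proteins bind, rose 2.41-fold at 2 mg/L. Its means were 594, 935 and 1431 CPM in the control, at 4 and at 2 mg/L. Mve09G009340, of the same name, rose 2.36-fold at 2 mg/L, with means of 304, 226 and 718 CPM in the same order. Mve09G009330, also so named, fell 2.44-fold at 4 mg/L, with means of 154, 62.9 and 253 CPM. Each of these genes had its highest mean at 2 mg/L.

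Markers of gill cell types moved with the groups too. The 71 tested genes of cilia, which mark gill epithelium, summed to 8424 to 8489 CPM in the control. Their sum was 7364 to 7457 at 4 mg/L and 7699 to 7760 at 2 mg/L. Of these genes, 39 fell and 11 rose at 4 mg/L (54.9% and 15.5%, against 34.5% and 35.4% of all genes tested). At 2 mg/L 33 fell and 18 rose (46.5% and 25.4%, against 32.0% and 31.5%). The 12 muscle genes summed to 2739 to 2828 CPM, 2647 to 2875 and 9544 to 11922, so they were highest in the group where Mve11G008840 was highest; 9 rose and 1 fell at 2 mg/L, and 1, a myosin heavy chain gene, had no count there. Of the 9 tested hemocyte markers 4 rose and 4 fell at 4 mg/L, 44.4% each against 35.4% and 34.5% of all genes. The 9 markers summed to 1959 to 2017 CPM, 3717 to 3737 and 1393 to 1405, highest at 4 mg/L. That order rests on Mve06G014840, a hemocyte transglutaminase gene, since the other 8 summed to 1110 to 1143, 861 to 908 and 857 to 883 CPM, highest in the control; of all 16 in the table, 5 had no count in the control, 1 at 4 mg/L and 5 at 2 mg/L. The part of these cell types in the TRIM results was not tested.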

How the data were processed

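Gill RNA was selected with oligo(dT), made into dUTP libraries and sequenced as pairs of 150 bases, per the labels' protocols. Reads were handled with cutadapt 1.9, HISAT2 2.2.1, StringTie 2.1.6, DESeq2 and edgeR, per the submitters' processing notes, which give no roles. The deposited table holds the authors' counts per gene beside the authors' FPKM, as its column headers name them. The counts were taken as raw, with no normalization, and the FPKM as scaled for length and mapped fragments. The labels and table name no genome build and do not give the use of strand or the treatment of reads shared by near-identical copies in counting; values of closely related TRIM copies and of overlapping genes are uncertain. Coordinates are those of the table. Totals were 26994566 to 32246147 counts per library.

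Genes averaging 1 FPKM or more (15397) were fitted with edgeR 4.0.16 (R 4.3.3): TMM scaling, quasi-likelihood test, 1 coefficient per group, all 9 libraries, Benjamini-Hochberg adjustment over all of them, call at adjusted p under 0.05. FPKM was used for levels between genes and TMM-scaled CPM within a gene, as mean ± SD of 3 libraries. Against a group with 0 counts a fold is a bound from a floor of 3 counts over the group. A count of 2 was more frequent than a count of 1 (2649 values against 1855), so counts were not taken as independent molecules. Such bounds, which cover counting error only, may be too high. The fit was tested on simulated counts. Alternatives were DESeq2 1.42.0, limma 3.58.1 on log2 FPKM, other scalings and filters, a replicate block and leaving out each library.

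The members and gene lists were chosen with earlier results of these data known. Genes were named by a rule: per comparison the 8 largest called rises and falls with groups that do not overlap, the 10 highest members, the 5 highest called in no comparison, the 6 that moved in opposite directions with the largest difference between hypoxic levels, the extremes of the 3 largest runs, and those at the threshold. Mve11G007340, Mve17G006680 and the run around Mve17G007730 were added after their values were seen. Genes of other lists come from the 3 largest rises and falls of each list.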

Additional observations from a re-analysis of the deposited data

How the results depend on the processing

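Counts of called TRIM genes moved by more than 1.5 times under 4 settings. Without a filter on low values all 310 family genes were counted: 72 rose at 4 mg/L, and 74 fell at 2 against 4 mg/L; edgeR's own filter gave 69 rises at 4 mg/L. With a 2-fold minimum, 68 were called at 2 mg/L against the control (23 rose, 45 fell) and 72 at 2 against 4 mg/L (40 rose, 32 fell). Among members at 1 FPKM or more in every group, a setting added after seeing the data, 80 were called at 4 mg/L (23 rose, 57 fell), 69 at 2 mg/L (25 rose, 44 fell) and, at 2 against 4 mg/L, 74 with 26 that fell. These settings count other sets of genes by construction. Leaving out 1 library gave 129 to 138 calls at 4 mg/L (41 to 44 rose, 88 to 94 fell), 102 to 117 at 2 mg/L (33 to 40 rose, 69 to 79 fell) and 105 to 115 between the hypoxic levels (62 to 67 rose, 41 to 48 fell). Same-numbered libraries did not deviate together (correlations from -0.03 to 0.01), so the numbers were not taken as pairs; with a replicate block 135, 110 and 111 genes were called in the same order.

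Of 3477 values of the 61 named genes over 19 settings, 3374 kept direction and call, 47 lost a call, 56 gained one and 0 turned direction. The calls most often lost were those of Mve19G005170 at 2 mg/L (11 settings), Mve17G004600 at 4 mg/L (10), Mve09G001850 at 2 mg/L (6), and Mve04G002990 at 2 mg/L and Mve09G010880 at 4 mg/L (4 each). Low counts limit the smallest genes. A mean of 0.341 CPM, that of a lysozyme gene of the hemocyte list at 4 mg/L, rested on 33 counts over the 3 libraries.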

Other observations

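The 131 family genes under 1 FPKM, fitted without a filter, held further genes near 0 outside 1 group. Mve10G004410 (TRIM71) had no count in the control or at 2 mg/L and 482 counts over the 3 libraries at 4 mg/L. Mve03G019430 (TRIM71), next to Mve03G019440, had 31, 617 and 4 counts in the control, at 4 and at 2 mg/L, and Mve06G013540 (TRIM2), next to Mve06G013530, had 36, 550 and 7. Mve17G007120 (TRIM33) had 99 counts in the control, 0 at 4 mg/L and 9 at 2 mg/L. Of the 131, 30 rose and 25 fell at 4 mg/L (42.0% called), where the same fit called 51.8% of 24722 genes, 6631 rising and 6165 falling. At 2 mg/L 14 rose and 15 fell (22.1% called), where it called 45.0% of all genes, 5545 rising and 5583 falling. The 24722 include the 15397 at 1 FPKM or more, of which the filtered fit called 69.9% at 4 mg/L and 63.5% at 2 mg/L. They are therefore not a like background for genes under 1 FPKM, whose share alone was not computed. The genes named in this paragraph were chosen after their values were seen.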
